A study of Mus musculus with 12 samples.

Results

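Short back-splice intervals are junctions whose 2 ends lie under 1000 bp apart in the mouse genome. A back-splice joins the end of an exon to the start of the same exon or of one upstream of it, and closes RNA into a circle. The members were chosen by length alone, as the end coordinate minus the start coordinate, among junctions that the deposited table assigns to a gene. They number 611 of 6795 junctions with a gene name and of 7025 listed junctions, and they lie in 560 host genes.

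The libraries came from the hippocampus of mice aged 7 months, with 3 WT samples and 3 5xFAD samples of the series prefixed AT in their titles. The labels do not spell out this prefix. 5xFAD mice carry transgenes with familial Alzheimer's disease mutations, human APP among them, expressed in neurons from Thy1 regulatory sequence, and WT mice lack them. The design text names an RNA-seq preparation with A-tailing and RNase R, an enzyme that digests linear RNA and leaves most circles. Sex, strain background and whether each sample is a separate animal are not stated in the labels, so the spread on which every p-value rests may be technical. The same series holds 3 WT and 3 5xFAD samples prefixed CG, with FPKM (fragments scaled by gene length and library depth) for each gene.

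Circular RNAs have no free ends, resist exonucleases and accumulate in neurons, which divide rarely. A short genomic interval leaves little room for introns, so many such circles are formed from 1 exon, often a long early exon flanked by long introns. Gene models of the build used by the authors (mm9) were not used here, so exon content is not stated for any interval, and no junction sequence could be read from a genome of that build.

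The 6 AT libraries held 191408 to 695539 recovered junction reads, with 438790 in WT replicate 1 and 191408 in 5xFAD replicate 1 against 659414 to 695539 in the other 4. These 2 shallower libraries also stood apart from the rest in the values of short junctions, as given below. Every listed junction has a deposited signal (reads scaled by 1 factor per library) of 2.03 or more throughout the WT libraries, throughout the 5xFAD libraries, or both. Of the 611 short junctions, 405 reached that level in both groups, 106 in WT only and 100 in 5xFAD only. A junction listed through 1 group had at least 1 library below that level in the other group. This favours a higher mean in the listing group but does not require it. In Shoc2, for example, WT libraries all reached the level, yet the mean signal was 10.4 in WT and 16.3 in 5xFAD. Counts of genotype differences over listed junctions hold this selection. In the CG WT libraries, Snap25 of neurons (931 FPKM on average), Slc17a7 of excitatory neurons (351 FPKM), Prox1 of dentate granule cells (22.6 FPKM) and Fibcd1 of CA1 (27.1 FPKM) were present. The 4 choroid plexus markers (Ttr, Kl, Folr1 and Aqp1) were all highest in CG WT replicate 1, with a summed 2818 FPKM there and 40.2 and 63.0 FPKM in the other WT libraries. Thy1 stood at 305 FPKM in CG 5xFAD replicate 3, inside the 296 to 340 FPKM of WT, and at 1136 and 1172 FPKM in the other 5xFAD libraries. Whether the AT library with that number came from the same animal is not stated, and genotype values without that AT library are given below.

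The short intervals ran from 156 to 998 bp with a median of 546 bp, while the 6184 longer junctions had a median of 11360.5 bp. By length, 49 members were under 250 bp, 223 were 250 to under 500 bp, 188 were 500 to under 750 bp and 151 were 750 to under 1000 bp. The shortest interval was 156 bp in Nrcam, a neuronal adhesion molecule, at chr12:45488886-45489042 (mm9, coordinates as deposited). Among the 3 shortest was also an interval of 165 bp in Jmjd1c. At the limit, the longest members lay in Ano3 (995 bp), Chd9 (997 bp) and Ccdc88a (998 bp), with mean WT signals of 10.5, 28.9 and 11.9. The nearest longer junctions lay in Hmgxb3 (1000 bp), Atxn2 (1000 bp) and Mecr (1001 bp), with mean WT signals of 63.4, 18.1 and 14.5. Lengths divisible by 3 made up 35.8% of short and 33.7% of longer intervals. Short junctions made up from 4.35% of the named junctions of chromosome 13 to 14.4% of those of chromosome 7.

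Short junctions shared their ends with other junctions less often than longer ones did in this list. A start or end coordinate was shared with another listed junction for 184 of 611 members (30.1%), against 3572 of 6184 longer junctions (57.8%), and this difference was not tested. Of the members, 253 (41.4%) were the only listed junction of their gene, as were 1304 (21.1%) of the longer junctions. An interval longer than their own wholly contained 182 members (29.8%) and 2270 of 6184 longer junctions (36.7%). Most hosts, 516 of 560, had a single short junction, 38 had 2, 5 had 3 and 1 had 4.

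The gene with 4 short junctions was Grm5, a metabotropic glutamate receptor of the postsynapse, with intervals of 236, 250, 856 and 940 bp that do not touch. Its mean WT signals were 4.10, 4.50, 4.89 and 23.7 in that order, so the 940 bp interval at chr7:95222700-95223640 led. Genes with 3 short junctions were Ep300, Ash1l, Zc3h7a, Rnf216 and Srcap. In Ep300, an acetyltransferase that serves as a transcriptional coactivator, the 3 were at mean WT signals of 20.2 (445 bp), 19.1 (638 bp) and 53.9 (899 bp). In Zc3h7a, all 3 listed junctions of the gene were short, and the 281 and 542 bp intervals began at the same coordinate, chr16:11156112. Gigyf2, host of the circle that the series knocked down in cultured cells, had 0 short junctions in the table.

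Among the short junctions were 6 pairs that began at the same base and ended 3 or 4 bp apart. They lay in Bcl11b (363 and 366 bp), Kcnip3 (927 and 931 bp), Clvs1 (621 and 625 bp), Klhl8 (381 and 384 bp), Elavl3 (546 and 549 bp) and Kmt2a (485 and 488 bp). These pairs held 12 of 611 members (1.96%), and the same window of 10 bp at both ends held 30 of 6184 longer junctions (0.485%). Members of a pair share nearly all of their sequence, so how the caller divided reads between them could set their levels.

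In each pair the longer interval had the higher mean WT signal, by 1.16 times in Clvs1 to 28.8 times in Kmt2a. In Kmt2a, a histone methyltransferase, the 488 bp interval at chr9:44636866-44637354 held 96.7%, 96.8% and 96.4% of the pair's signal in the WT libraries and 96.2%, 94.6% and 92.9% in 5xFAD. In Elavl3, a neuronal RNA-binding protein, the 549 bp interval held 90.1% to 93.8% over the 6 libraries. The share varied little between libraries in these 2 genes. In Bcl11b, a zinc finger transcription factor of neurons, the 366 bp interval held 64.8%, 72.0% and 68.5% in WT and 77.5%, 74.5% and 79.0% in 5xFAD. Bcl11b and Kmt2a were the 2 pairs whose groups did not overlap, the first higher and the other lower in 5xFAD, and 3 of the 15 pairs of longer junctions did not overlap either. In Clvs1 the share ran from 15.1% to 91.7% over the libraries, with 15.1% in WT replicate 1.

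**Figure D1:**
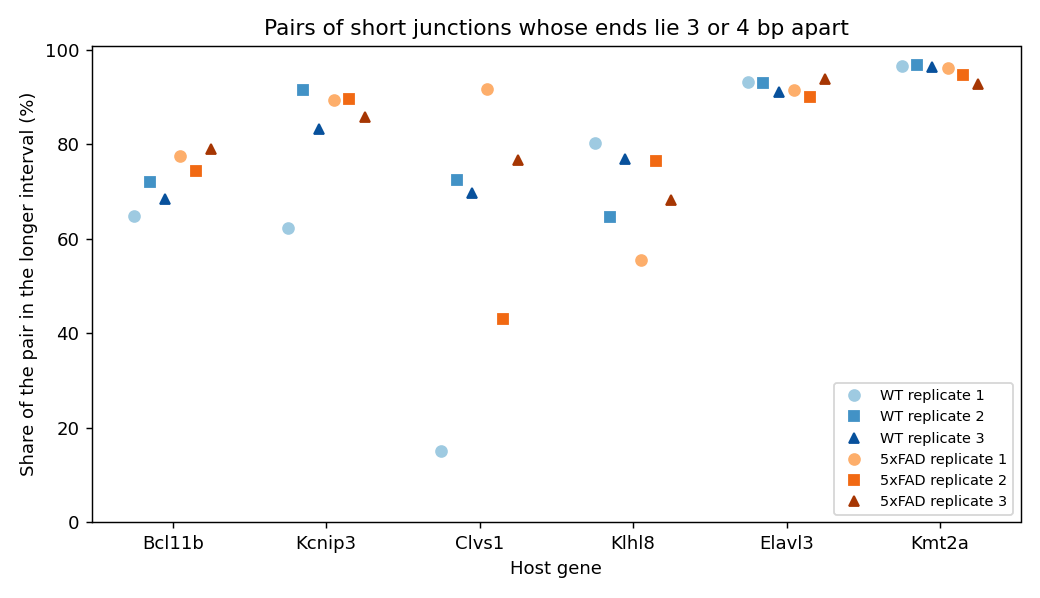
Share of the signal of each pair of short junctions that fell on the longer interval (vertical axis, percent), for 6 host genes; each point is 1 library. Elavl3 and Kmt2a stay above 90% in all 6 libraries, while Clvs1 runs from 15.1% to 91.7%.

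Short junctions held 46255 of 428956 reads on named junctions in WT replicate 1 (10.8%), 68081 of 680806 in replicate 2 and 70652 of 679341 in replicate 3 (10.4%). In 5xFAD the share was 12.7%, 9.83% and 9.96% in replicates 1 to 3. The exact (Clopper-Pearson) 95% interval was 9.93% to 10.1% in WT replicate 2, 12.6% to 12.9% in 5xFAD replicate 1 and 9.76% to 9.90% in 5xFAD replicate 2, which covers counting error only, since reads without molecular identifiers are not independent molecules. The mean was 10.4 ± 0.392% (SD, n = 3) in WT and 10.8 ± 1.64% (SD, n = 3) in 5xFAD, so the groups overlapped and 5xFAD replicate 1 was the highest library. Without it, the 5xFAD mean was 9.90%.

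The signal was concentrated in few members. The 36 highest of 611 short junctions (5.89%) held 50% of their summed mean WT signal, and the 10 highest held 32.4% of it. Among longer junctions 416 of 6184 (6.73%) held 50%, and the 10 highest held 8.27%. The 10 highest are a much larger part of 611 junctions than of 6184. Their shares therefore cannot be compared directly between the classes, while 5.89% and 6.73% can. A mean WT signal over 100 was reached by 26 short junctions (4.26%) and 236 longer ones (3.82%). The median member had a mean WT signal of 9.12, against 8.46 for longer junctions. Of the 50 most abundant named junctions in WT, 8 were short.

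The most abundant short junction lay in Med13l, a subunit of the kinase module of Mediator, at chr5:119043341-119043579 (238 bp). Its signal was 1693, 1137 and 1423 in WT and 2625, 1033 and 943 in 5xFAD. The replicate 1 library was the highest in each group, and the groups overlapped. The 532 bp interval of Nfix, a transcription factor of the nuclear factor I family, at chr8:87295682-87296214, had signals of 890, 726 and 829 in WT and 1049, 725 and 590 in 5xFAD. The 318 bp interval of Pvt1, a long non-coding RNA, at chr15:61938702-61939020, had signals of 607, 579 and 662 in WT and 761, 455 and 394 in 5xFAD.

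The short junctions next in level included 4 that were lowest in replicate 1 of each group. Zfp609 is a zinc finger protein whose circle of 1 exon has been studied in muscle, and its 874 bp interval at chr9:65642428-65643302 had signals of 375, 535 and 437 in WT and 414, 703 and 684 in 5xFAD. The 873 bp interval of Kat6b, a histone acetyltransferase, had signals of 285, 458 and 590 in WT and 203, 458 and 618 in 5xFAD. In the 630 bp interval of Setbp1, which encodes a SET-binding protein, signals were 246, 494 and 453 in WT and 240, 444 and 635 in 5xFAD. The 921 bp interval of Kcnj6, an inwardly rectifying potassium channel of neurons, had signals of 197, 370 and 470 in WT and 175, 405 and 582 in 5xFAD. In these 4 the replicate 1 libraries of both groups lay below the other libraries of their group, and the genotype groups overlapped.

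The remaining members of the top 10 lay in Elavl3, Rad52 and St6galnac3. The 549 bp interval of Elavl3 at chr9:21840755-21841304 had signals of 402, 277 and 287 in WT and 469, 185 and 291 in 5xFAD. In the 919 bp interval of Rad52, a recombination protein, signals were 241, 316 and 272 in WT and 388, 292 and 211 in 5xFAD. The 410 bp interval of St6galnac3, a sialyltransferase, had signals of 262, 211 and 256 in WT and 287, 197 and 214 in 5xFAD. Replicate 1 was the highest library of each group in Elavl3 and St6galnac3, and all 3 had overlapping groups.

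**Figure D2:**
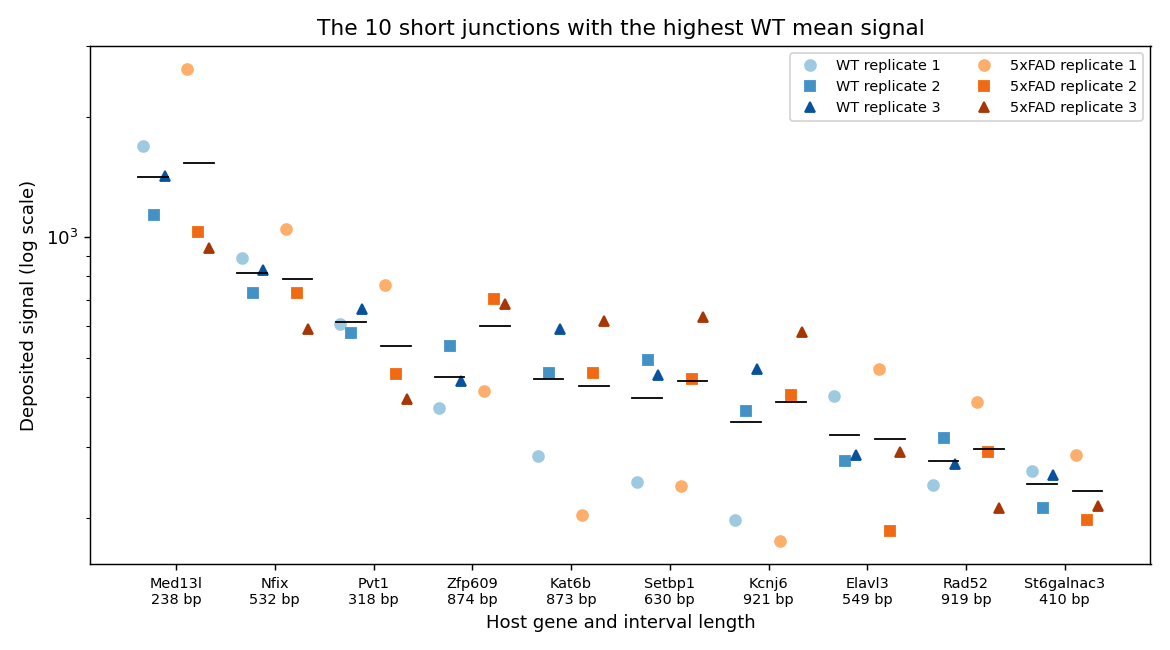
Deposited signal (vertical axis, log scale) of the 10 short junctions with the highest WT mean, by host gene and interval length; each point is 1 library and each bar the mean of 3. The replicate 1 libraries (circles) are the highest of their group in Med13l, Nfix, Elavl3 and St6galnac3 and the lowest in Zfp609, Kat6b, Setbp1 and Kcnj6.

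Each of these 10 junctions was the most abundant listed junction of its gene in WT. Its share of the gene's summed mean WT signal ran from 84.7% in Elavl3 to 100% in Kcnj6, where it was the only listed junction. Such dominance was not general: in genes with more than 1 listed junction, 122 of 358 short junctions were the most abundant of their gene. For the 325 members in 291 genes that also had a longer junction, the difference from the median of the gene's longer junctions had a median of 0.11 on the log2(signal + 1) scale in WT, and 170 of 325 (52.3%) lay above it. The median over these members was 0.21, 0.10 and 0.00 in WT replicates 1 to 3 and 0.62, 0.06 and -0.15 in 5xFAD replicates 1 to 3. The value in 5xFAD replicate 1 lay apart from the other 5. Against the highest longer junction of the same gene, the median in WT was -0.74 and 113 of 325 members (34.8%) lay above.

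Gene expression of the hosts was read from the CG WT libraries, in FPKM, a value not stated to be of linear RNA alone. All 560 hosts matched a gene there, with a median of 18.0 FPKM, against 16.5 for the 2387 genes that hosted only longer junctions and 5.59 for the 18441 genes above 0. Without CG WT replicate 1, the library with the high choroid plexus markers and left out after seeing the data, the median of the 560 hosts was 18.2 FPKM. Across the 611 members, the Spearman correlation of junction signal with host FPKM was 0.07, and across longer junctions it was 0.07 as well (n = 6184), both as descriptions across junctions that share hosts. Host FPKM of the 3 leading members was 27.7 for Med13l, 80.9 for Nfix and 7.60 for Pvt1. Rad52 (7.09 FPKM) and St6galnac3 (6.10 FPKM) lay, with Pvt1, below the lower quartile of hosts, 10.2 FPKM.

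Host genes were also grouped into 9 lists of known circle hosts, synaptic genes and gene families. Over all hosts with a named junction, 19.0% had a short one. Genes with a short junction numbered 6 of 17 postsynaptic hosts (35.3%), 12 of 35 RNA-binding protein hosts (34.3%), 13 of 43 chromatin factor hosts (30.2%), 5 of 17 presynaptic hosts (29.4%), 5 of 19 hosts of abundant brain circles (26.3%), 2 of 9 hosts known for circles of 1 exon (22.2%), 10 of 48 zinc finger hosts (20.8%), 14 of 83 hosts of ubiquitin ligases and proteases (16.9%) and 9 of 57 kinase hosts (15.8%). These shares were not tested against each other, and a host with more listed junctions has more chances to hold a short one. By junction, 11 of 68 postsynaptic, 13 of 92 RNA-binding, 18 of 110 chromatin, 6 of 88 presynaptic and 6 of 149 brain circle junctions were short. The counts were 2 of 22 for hosts of circles of 1 exon, 12 of 86 for zinc fingers, 17 of 157 for ubiquitin enzymes and 10 of 146 for kinases. Over all named junctions 8.99% were short. The 5 lists that are gene families (RNA-binding proteins, chromatin factors, zinc fingers, ubiquitin enzymes and kinases) hold only symbols with chosen prefixes, so short junctions such as those of Kat6b (chromatin) and Brsk2, Insr and Pak7 (kinases), named after their values were seen, fall outside them with mean WT signals of 445, 98.6, 93.1 and 70.4. Positive 5xFAD minus WT differences were found in 3 of 11 postsynaptic, 4 of 6 presynaptic, 8 of 13 RNA-binding, 4 of 18 chromatin, 4 of 12 zinc finger, 8 of 17 ubiquitin and 5 of 10 kinase junctions, in 6 of 6 junctions of abundant brain circle hosts and in 1 of 2 of hosts known for circles of 1 exon. Over all short junctions 291 of 611 (47.6%) were positive. In each of the 9 lists, 0 short junctions passed the genotype test described below.

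Postsynaptic members, 11 junctions with a median mean WT signal of 13.5, were led by Grin2a, an NMDA receptor subunit. Its 593 bp interval had signals of 102, 131 and 113 in WT and 111, 103 and 95.4 in 5xFAD, groups that overlapped. Nlgn1, a neuroligin that spans the synapse, had an 811 bp interval at 59.1, 92.3 and 83.3 in WT and 14.7, 92.4 and 110 in 5xFAD, with replicate 1 the lowest in each group. The 599 bp interval of Grin2b, another NMDA receptor subunit, averaged 57.6 ± 11.5 (SD, n = 3) in WT and 60.2 ± 11.7 (SD, n = 3) in 5xFAD.

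Presynaptic members were lower, 6 junctions with a median mean WT signal of 7.41. The highest was the 311 bp interval of Rims2, an organiser of the active zone, at 23.2, 39.9 and 26.2 in WT and 52.8, 33.9 and 33.2 in 5xFAD. It held 6.27% of the summed junction signal of Rims2, which had 13 listed junctions. In Bsn, a scaffold of the active zone, the 409 bp interval was the only listed junction and averaged 8.69 ± 4.34 (SD, n = 3) in WT and 5.74 ± 4.88 (SD, n = 3) in 5xFAD. The short presynaptic junctions thus held a small part of their hosts' circle signal in Rims2 and all of it in Bsn.

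Nuclear and RNA-binding hosts held several of the higher members. The 13 RNA-binding protein junctions had a median mean WT signal of 22.4 and included Mbnl2, a splicing regulator, whose 619 bp interval was the only listed junction of its gene and stood at 67.4, 77.7 and 55.9 in WT and 50.2, 71.2 and 92.3 in 5xFAD. The 12 zinc finger junctions had a median of 29.5, with Zfp292 (655 bp) at 147, 141 and 150 in WT and 155, 132 and 110 in 5xFAD. The 18 chromatin junctions had a median of 12.1, with the 488 bp interval of Kmt2a the highest of that list, at 164, 170 and 139 in WT and 262, 158 and 90.3 in 5xFAD. In Zfp292 the WT libraries lay close together, while in Kmt2a the 5xFAD libraries spread widely around the WT range.

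Ubiquitin and kinase hosts were near the median of all short junctions. The 17 ubiquitin junctions had a median mean WT signal of 10.1. The 10 kinase junctions had a median of 10.7, and the 750 bp interval of Stk35 was the highest of that list, with 52.4, 52.2 and 49.1 in WT and 14.7, 68.2 and 79.6 in 5xFAD. Of hosts known for circles of 1 exon, only Zfp609 and Fat3 had a short junction listed, and the 315 bp interval of Fat3, a large cadherin, stood at 13.8, 11.8 and 10.3 in WT.

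The level of short junctions varied with the library and with the length within the class. On the log2(signal + 1) scale, the median short junction exceeded the median longer one by 0.26, 0.04 and 0.07 in WT replicates 1 to 3 and differed by 0.48, -0.04 and -0.04 in 5xFAD replicates 1 to 3. The group means were 0.12 ± 0.12 (SD, n = 3) in WT and 0.13 ± 0.30 (SD, n = 3) in 5xFAD, which is about the size of the spread between libraries in WT and below it in 5xFAD. Without replicate 1 they were 0.05 in WT and -0.04 in 5xFAD, where the direction turned.

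The pattern was larger in the 272 junctions under 500 bp. Their median exceeded that of longer junctions by 0.37 in WT replicate 1 and 0.67 in 5xFAD replicate 1, and differed by -0.04 and 0.02 in WT replicates 2 and 3 and by -0.07 and -0.10 in 5xFAD replicates 2 and 3. Both shallower libraries were thus above the other 4. Their share of reads was 5.48%, 4.15% and 4.48% in WT and 6.97%, 3.91% and 3.81% in 5xFAD. For the 339 junctions of 500 to under 1000 bp, the median difference from longer junctions was 0.06, 0.10 and 0.14 in WT replicates 1 to 3. It was 0.26, 0.00 and 0.00 in 5xFAD, so 5xFAD replicate 1 was again the highest of its group. The share of reads of these 339 junctions was 5.30%, 5.85% and 5.92% in WT and 5.77%, 5.92% and 6.15% in 5xFAD. By share, the shallower libraries were the lowest in each group.

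Relative to each junction's own mean over the 6 libraries, the median deviation of the 49 junctions under 250 bp was 0.33 in WT replicate 1, 0.68 in 5xFAD replicate 1 and -0.34 to -0.06 in the other 4 libraries. For intervals of 250 to under 500 bp it was 0.24 and 0.52 in these 2 libraries and -0.09 to -0.05 in the others. From 500 to under 1000 bp it lay between -0.08 and 0.12 in all 6 libraries. An excess was also present above the limit. From 1000 to under 2000 bp it was 0.24 in 5xFAD replicate 1 and -0.05 to 0.11 in the other libraries. From 2000 to under 5000 bp it was 0.18 in replicate 1 of each group and -0.05 to 0.08 in the other libraries. For intervals of 50000 bp or more, 5xFAD replicate 1 was the lowest library at -0.14. The depth of replicate 1 moves with this pattern in both groups, and its part in it was not tested.

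**Figure D3:**
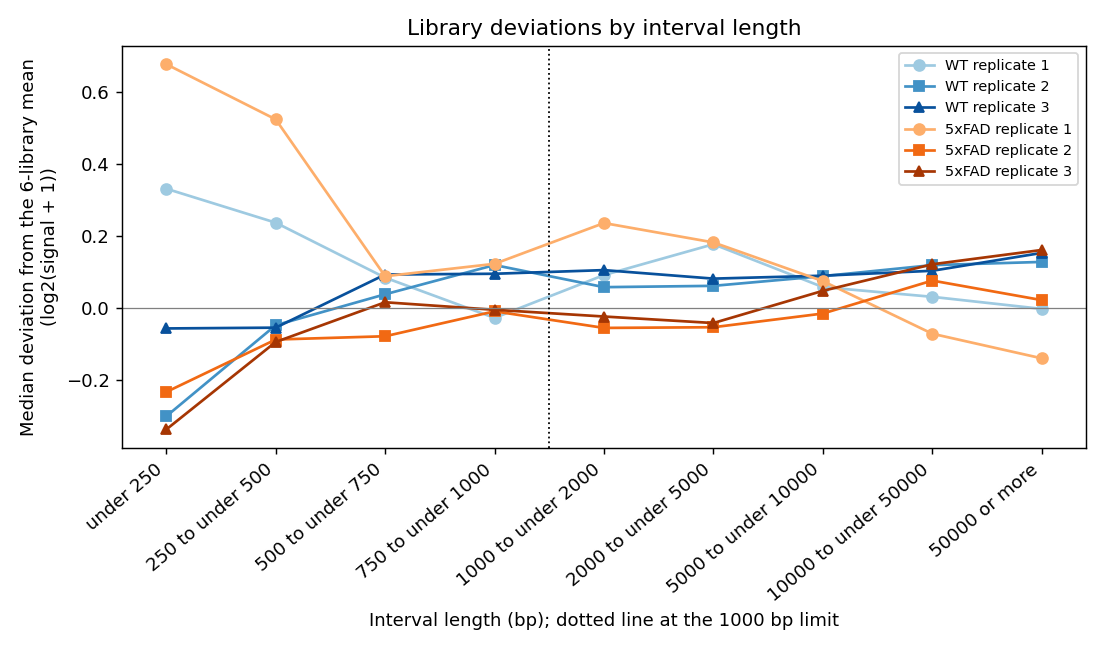
Median deviation of junctions from their own 6-library mean (vertical axis, log2(signal + 1)) by interval length in bp (horizontal axis); each line is 1 library and the dotted line marks the 1000 bp limit. Replicate 1 of WT and of 5xFAD lie above the other 4 libraries under 500 bp, by most under 250 bp. They also lie above them, by less, from 2000 to under 5000 bp.

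The same pattern was seen junction by junction. Replicate 1 was the highest library in both groups at once for 86 of 272 junctions under 500 bp (31.6%), 68 of 339 from 500 to under 1000 bp (20.1%) and 1017 of 6184 longer ones (16.4%). It was the lowest in both groups for 7 of 272 (2.57%), 66 of 339 (19.5%) and 1116 of 6184 (18.0%) in the same order. Among the 12 junctions under 500 bp with a mean WT signal over 100, replicate 1 was highest in both groups for 8 and lowest in both for 0. When named junctions were divided into 5 classes of equal size by mean level, 5xFAD replicate 1 had a median deviation of 0.51 to 0.62 for junctions under 500 bp in the upper 4 classes, and 0.12 in the lowest class. WT replicate 1 had 0.10 to 0.38 over the 5 classes.

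Replicate spread of short junctions was close to that of longer ones. The median SD over 3 libraries on the log2(signal + 1) scale was 0.55 for short and 0.55 for longer junctions in WT, and 0.63 and 0.60 in 5xFAD. Without replicate 1, the median SD of junctions under 500 bp was 0.32 in WT and 0.34 in 5xFAD, and that of longer junctions 0.36 and 0.33. In the highest of the 5 level classes, junctions under 500 bp had a median SD of 0.62 in 5xFAD against 0.46 for longer ones, and 0.19 against 0.23 without replicate 1. The wider 5xFAD spread of abundant junctions under 500 bp was therefore not seen without that library.

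Correlations between libraries of log2(signal + 1) over short junctions ran from 0.68 to 0.90 with a median of 0.77 (n = 611 junctions). Over longer junctions they ran from 0.61 to 0.89 with a median of 0.73 (n = 6184 junctions). The members with the largest spread in WT were Sept9 (639 bp), at 16.1, 12.5 and 0, Xrn2 (592 bp), at 0, 11.4 and 7.72, and Map4k2 (755 bp), at 0.374, 12.3 and 14.5. In each of them 1 WT library was at or near 0 while the other 2 lay above 7.

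The genotype comparison asked which junctions differed between 5xFAD and WT hippocampus. No short junction passed. Limma, on log2(signal + 1) with Benjamini-Hochberg adjustment over all 7025 junctions, called 0 of 611 short junctions and 0 of all 7025 (0%), with a smallest adjusted p of 0.368 among the members. At an unadjusted p under 0.05 limma counted 30 short junctions (4.91%), 16 higher and 14 lower in 5xFAD, against 399 of 7025 (5.68%). That count was 45 without 5xFAD replicate 1 (7.36%, against 6.51% of all junctions) and 56 without both replicate 1 libraries (9.17%, against 7.47%). It was 17 without 5xFAD replicate 3 (2.78%, against 4.7% of all junctions) and 20 without WT replicate 1 (3.27%, against 3.69%), and 0 were called in each case. EdgeR's quasi-likelihood test on recovered reads called 0 short junctions (0%) and counted 17 at an unadjusted p under 0.05 (2.78%, against 2.88% of all junctions). DESeq2 also called 0 short junctions, against 1 of 7025 (0.0142%), and counted 24 at an unadjusted p under 0.05 (3.93%, against 3.35%). The RNA came from tissue, so fewer cells of a type and less RNA per cell could not be told apart for any junction.

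The median 5xFAD minus WT difference of short junctions was -0.03 on the log2(signal + 1) scale, with 291 of 611 positive (47.6%). It was -0.06 for all 7025 junctions, with 3212 positive (45.7%). Without 5xFAD replicate 1, the median of short junctions was -0.12, against -0.01 over all junctions, and without 5xFAD replicate 3 it was 0.05, against -0.04. All 3 5xFAD libraries lay above all 3 WT libraries for 29 short junctions (4.75%), against 4.43% of all junctions. They lay below for 36 (5.89%), against 6.65% of all junctions. In the authors' deposited table, 21 short junctions (3.44%) had an adjusted p under 0.05, 10 higher and 11 lower, against 264 of 7025 (3.76%). These 21 included Mga, Fxr2, Larp1, Ncln, Ube2j1, Nrcam, Lpp and Xylt1, which are described below. Acaca, Pwwp2a, Grm5, Fbxw7 and the 736 bp interval of Ash1l were not among them.

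The short junctions with the smallest unadjusted p were mostly low. Of the 30 under 0.05, 25 were listed through 1 group only and 27 had a mean signal under 10. The 477 bp interval of Mga, a partner of the Max transcription factor, at chr2:119747101-119747578, had signals of 0, 0 and 0.468 in WT and 3.46, 7.00 and 4.06 in 5xFAD, which correspond to 0, 0 and 2 reads and to 4, 31 and 17 reads. Its log2 difference was 2.32 (SE 0.52, limma adjusted p = 0.368). The 255 bp interval of Fxr2, a relative of the fragile X protein, at chr11:69465809-69466064, had 0 reads in each WT library and 3, 11 and 10 reads in 5xFAD. Against a floor of 3 reads over the WT group, its mean 5xFAD signal of 2.49 was at least 9.41-fold higher (limma adjusted p = 0.368). The 207 bp interval of Larp1, which binds mRNAs of the translation machinery, was at 0.748, 0.456 and 0.234 in WT and 3.46, 3.84 and 2.87 in 5xFAD.

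In WT each of these 3 junctions was below another listed junction of its gene. All 3 were listed through 5xFAD only, which favours a low WT rank, and their rank in 5xFAD is not given. Larp1 differed by 1.58 (SE 0.49, limma adjusted p = 0.716). The 736 bp interval of Ash1l, a histone methyltransferase, stood at 7.11, 22.1 and 15.0 in WT and 43.3, 22.6 and 49.0 in 5xFAD, a difference of 1.38 (SE 0.49). Pwwp2a, a chromatin protein, had a 944 bp interval at 11.6, 52.0 and 21.5 in WT and 39.0, 87.9 and 69.8 in 5xFAD, with overlapping groups and a difference of 1.36 (SE 0.50). Ash1l and Pwwp2a were listed through both groups, and neither passed (limma adjusted p = 0.759 and 0.791).

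Lower values in 5xFAD were led by Ncln, an endoplasmic reticulum membrane protein, whose 679 bp interval at chr10:80950424-80951103 was at 6.74, 2.51 and 6.08 in WT and 0, 0.678 and 0.239 in 5xFAD. These 5xFAD values correspond to 0, 3 and 1 reads. The log2 difference was -2.18 (SE 0.55, limma adjusted p = 0.401), and the groups did not overlap. The 729 bp interval of Ube2j1, a ubiquitin-conjugating enzyme of the endoplasmic reticulum, was at 5.24, 2.73 and 3.74 in WT and 0, 1.36 and 0 in 5xFAD. Nrcam, with the shortest interval of all, was at 2.62, 4.33 and 3.04 in WT and 0, 1.13 and 0 in 5xFAD.

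Acaca, the carboxylase that begins fatty acid synthesis, had a 638 bp interval at 7.48, 2.51 and 5.85 in WT and 0, 2.03 and 0 in 5xFAD. The 202 bp interval of Lpp, a protein of cell adhesions, was at 5.61, 5.70 and 4.91 in WT and 1.73, 0.452 and 0.717 in 5xFAD, which correspond to 15, 25 and 21 reads and to 2, 2 and 3 reads. Differences of these 4 junctions, from Ube2j1 to Lpp, ran from -2.02 to -1.73, with limma adjusted p from 0.669 to 0.716. All 5 lower junctions had WT libraries above every 5xFAD library, and all 5 were listed through WT only.

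**Figure D4:**
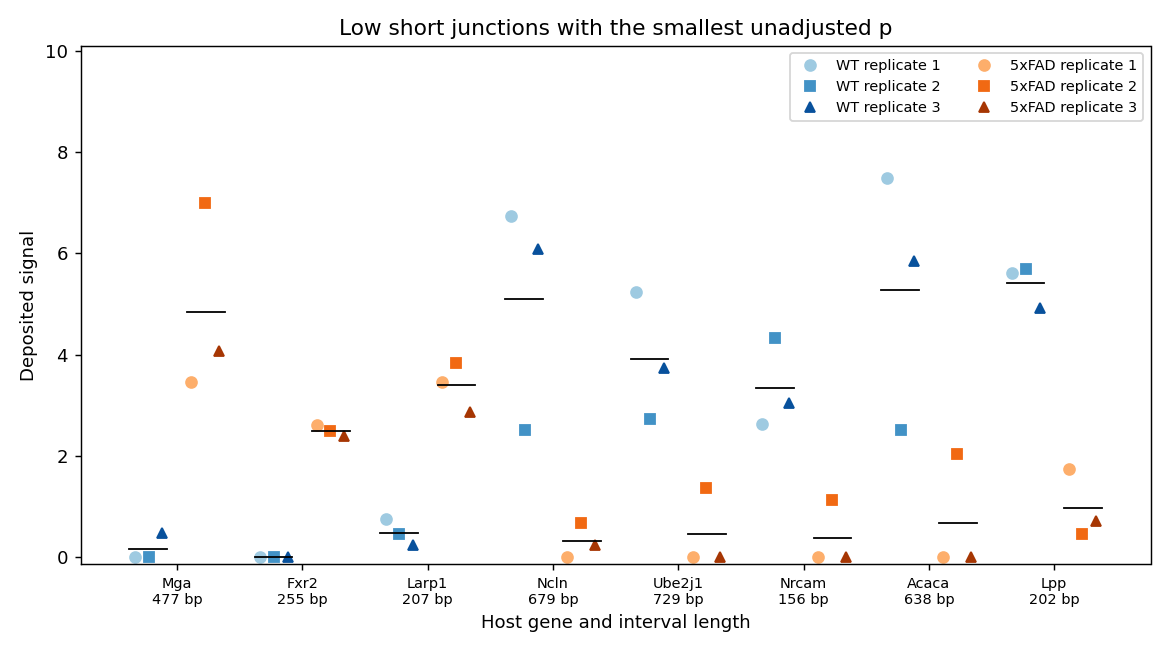
Deposited signal (vertical axis) of 8 of the 10 short junctions with the smallest unadjusted p in either direction, those of low signal; each point is 1 library and each bar the mean of 3. Mga, Fxr2 and Larp1 lie near 0 in WT and Ncln, Ube2j1, Nrcam, Acaca and Lpp are lower in 5xFAD, and none passed the limma test after adjustment.

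Among the 405 short junctions listed through both groups, 5 had an unadjusted p under 0.05 by limma and none passed after adjustment. The matching count over all 4199 junctions listed through both groups is not given, so these 5 are described and not taken to stand out. Besides Ash1l and Pwwp2a these were Xylt1, Grm5 and Fbxw7, named because of this small count after their values were seen. The 514 bp interval of Xylt1, a xylosyltransferase of proteoglycan synthesis, was at 2.25, 5.01 and 2.34 in WT and 13.0, 7.00 and 9.80 in 5xFAD. The 250 bp interval of Grm5 was at 4.12, 7.29 and 2.10 in WT and 23.4, 10.8 and 9.32 in 5xFAD. The 579 bp interval of Fbxw7, a substrate receptor of a ubiquitin ligase, was at 45.3, 21.9 and 20.3 in WT and 8.66, 18.1 and 10.04 in 5xFAD. In each of these 3 the groups did not overlap, with log2 differences of 1.40, 1.50 and -1.16 (SE 0.61, 0.62 and 0.48), and limma adjusted p of 0.827, 0.797 and 0.797.

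Abundant short junctions showed small differences with moderate errors. Over the 10 highest members, limma differences ran from -0.26 (SE 0.29) in Pvt1 to 0.39 (SE 0.29) in Zfp609, and none had an unadjusted p under 0.05. Zfp609 averaged 449 ± 80.7 (SD, n = 3) in WT and 600 ± 161 (SD, n = 3) in 5xFAD, with 5xFAD replicate 1 inside the WT range and the other 5xFAD libraries above it. Med13l averaged 1418 ± 278 (SD, n = 3) in WT and 1534 ± 946 (SD, n = 3) in 5xFAD.

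**Figure D5:**
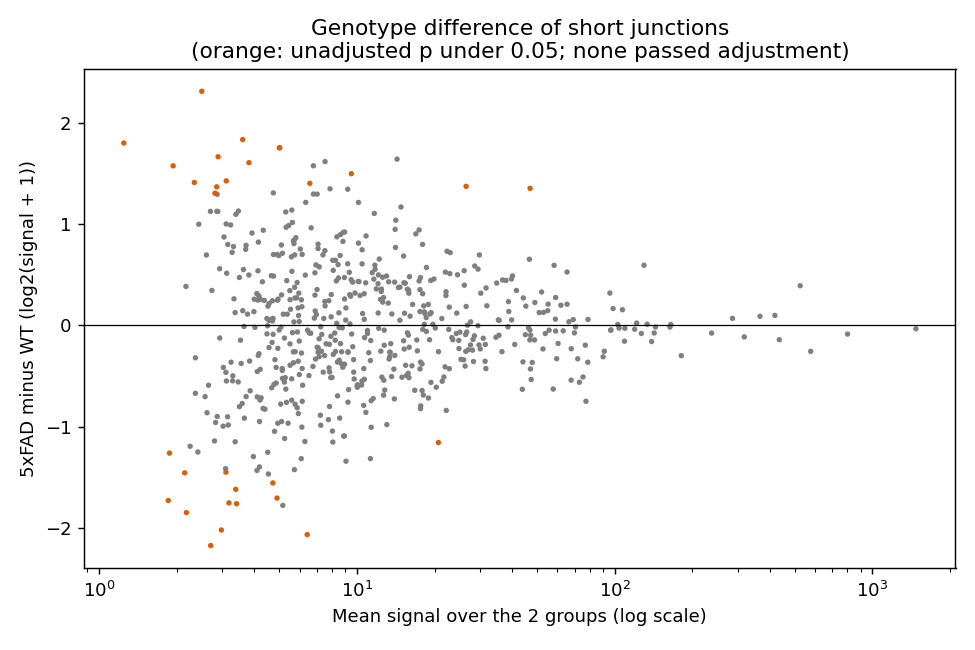
5xFAD minus WT difference (vertical axis, log2(signal + 1)) of the 611 short junctions against mean signal over both groups (horizontal axis, log scale); each point is 1 junction, orange at an unadjusted p under 0.05. The 30 orange points are mostly at mean signals under 10, and none passed the limma test after adjustment.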

How the data were processed

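The submitters' processing notes name mm9 and DESeq. The junction caller, read aligner, annotation and strandedness were "not given in the sources used here", in labels or headers. Per junction, the authors deposited junction signal scaled by 1 factor per library, a log2 ratio, p-values and adjusted p-values, per the file headers, and gene FPKM for the CG libraries. Coordinates are printed as deposited, and whether starts count from 0 or 1 is not stated. Within each library 100% of signals were whole multiples of its smallest step within 0.01, which gave whole reads. Limma 3.58.1 (R 4.3.3) with a mean trend was fitted to log2(signal + 1) of all 7025 junctions, since every one had a mean of 0.5 or more. Tests were two-sided with a threshold of 0.05 on the Benjamini-Hochberg adjusted p, and differences on this scale are compressed for low junctions. EdgeR 4.0.16 and DESeq2 1.42.0 were run on the recovered reads. All 3 were also run on simulated data. The simulated spread was a set value and not taken from these libraries, so that run does not show the power for these junctions.

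The members and lists were chosen with earlier results of these data known. Named members were the 10 most abundant in WT, the 5 higher and 5 lower with the smallest p (0 were called), the 3 shortest, 3 on each side of the limit, the 3 of largest WT spread, the hosts with most members, and up to 4 per list. The 9 lists are those counted in the report; 4 name genes and 5 use symbol prefixes. Levels, shares and spreads were described without a test, since junctions are not replicates. Every pair of libraries differed by 5.85 to 13.5 chi-square units per degree of freedom, so none was a duplicate. Alternatives are in the closing section. Some members that these rules name are not reported here.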

Additional observations from a re-analysis of the deposited data

Results flagged for a closer look

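Junctions under 1000 bp with no gene name entered no comparison of the report. There were 57, with a median WT mean signal of 6.84 and a highest of 110, above the signal of 0.265 that a count of 0 allows over the WT group (3 reads).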

How the results depend on the processing

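The number of short junctions called was 0 under every alternative run, with the replicate block among them (0 called, 27 at an unadjusted p under 0.05 by limma, 4.42% against 5.10% of all junctions). Same-numbered WT and 5xFAD libraries had correlated deviations of 0.07, 0.09 and 0.04, so the numbers were not taken to pair the samples. The median genotype difference of short junctions ran from -0.12 to 0.06 when 1 library was left out, and was 0.03 with edgeR and 0.06 with DESeq2, whose scale moved the median of all junctions by 0.10. Array quality weights gave 50 short junctions at an unadjusted p under 0.05 (8.18%, against 7.39%). With these weights the smallest limma adjusted p of a short junction was 0.0513, just above the threshold, and 2 of all junctions were called. Leaving out both replicate 1 libraries, chosen after seeing the data, gave 56 at an unadjusted p under 0.05 (9.17%, against 7.47% of all junctions). A mean signal of at least 5 gave 7 of 471 (1.49%, against 1.51%). The share of signal was 4.70% in WT and 4.90% in 5xFAD under 500 bp, and 16.4% and 17.1% under 2000 bp, as a narrower or wider class must give. The level difference ran from 0.05 to 0.16 in WT and from -0.04 to 0.22 in 5xFAD with 1 library left out, and the share from 10.2% to 10.6% and from 9.90% to 11.3%. The ratio of median spreads, short over longer, was 1.00 in WT and 1.05 in 5xFAD. By level class it was 0.913, 1.07 and 1.06 in classes 2, 3 and 4 in WT, and 0.932, 0.990 and 1.15 in classes 1, 4 and 5 in 5xFAD. With 1 library left out it ran from 0.887 to 1.01 in WT and from 1.01 to 1.09 in 5xFAD. The within-host difference in WT was 0.05 to 0.07 with 1 library left out and -0.74 against the highest longer junction, which is a higher reference by construction. The effect of depth on low members was not tested: 6.06% of short junctions had 0 reads in WT replicate 1 and 5.40% in 5xFAD replicate 1, against 0.327% to 1.80% in the other 4. Over all junctions 8.11% had 0 reads in WT replicate 1 and 8.34% in 5xFAD replicate 1, against 0.342% to 2.38% in the other 4. Of the 2 replicate 1 libraries, that of 5xFAD had fewer reads. Its zeros were fewer among short junctions and more numerous over all junctions.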
